A study of Homo sapiens with 48 samples.

Results

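Set G is 1 of 8 lettered groups of arrays in a study of K562 cells, and it holds the 6 samples titled with the letter G, of 48 samples in all. These are 3 mock-treated and 3 imatinib-treated samples, chosen by title, with no measured value used. K562 is an established human line from chronic myeloid leukaemia in blast crisis with the BCR-ABL1 fusion kinase, and all groups are of this line. Per the labels, the imatinib samples received 1 micromolar imatinib for 24 hours and the mock samples a mock treatment that is not further described. The keywords of the imatinib samples also say mock treated, so their group rests on the title and on the treatment named in the description. RNA of the mock samples was purified with Trizol and a column, and that of the imatinib samples with a column only, so treatment and RNA purification cannot be told apart. Labelled targets came from about 8 micrograms of total RNA, and the imatinib samples were given a lower amount of spiked control RNA, at 0.5 of the amount in the mock samples. What a letter stands for is not in the labels, nor whether the samples were cultured separately, so a p-value here reflects only sample-to-sample spread, which may be technical.

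BCR-ABL1 is a tyrosine kinase that is always active, and it drives growth through STAT5, the RAS-ERK cascade and PI3 kinase. Imatinib occupies the ATP pocket of the ABL kinase and keeps it in an inactive form. K562 cells resemble early red cell precursors, express embryonic and fetal globins, and are known to take up haemoglobin production when the kinase is blocked. The comparison asks which transcripts differed between imatinib and mock samples of set G and which of them changed by another amount here than in the mean of the other 7 sets.

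Values are deposited log2 levels of 22215 probe sets after 68 control probe sets were set aside, and a gene is given by its brightest probe set in set G, which gave 11963 genes. A difference of 1 on this scale is a 2-fold difference. Mock replicate 2 stood apart from the other 5 samples. Its levels correlated with those of the other mock samples at 0.990 and 0.993 across probe sets, against 0.997 between mock replicates 1 and 3 and 0.997 to 0.998 among the imatinib samples. The SD of its levels over probe sets was 2.19, against 2.05 to 2.10 in the other samples. Between replicates a probe set had a median SD of 0.147 among mock and 0.0839 among imatinib samples.

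The labelled cell type was checked on its markers. Of 12 K562 marker genes 11 were measured, and all 11 lay at or above the median level of the probe sets of set G, among them the globin genes HBE1 and HBZ, the erythroid factor gene GATA1 and the tumour antigen gene PRAME. Of the markers of other cells, 4 of 10 T cell, 1 of 7 B cell, 0 of 11 monocyte and granulocyte and 6 of 12 fibroblast and epithelial genes reached that level. Over all genes, each by its brightest probe set, 6863 of 11963 did, so the fibroblast and epithelial count was near the background. Mean levels over these lists were 6.23 to 6.73 in mock and 6.31 to 6.51 in imatinib samples for T cells, 6.39 to 6.83 and 6.64 to 6.80 for B cells, and 5.43 to 5.63 and 5.41 to 5.61 for monocytes and granulocytes. For the fibroblast and epithelial list they were 7.70 to 7.79 and 7.39 to 7.42. Fibronectin (FN1, -1.49 ± 0.09) and the keratin genes KRT8 (-1.41) and KRT18 (-1.03) of that last list fell, and their part in other results was not tested.

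Imatinib was followed by higher levels of genes for haemoglobin and the red cell membrane, and by lower levels of genes for growth signalling, ribosome production, amino acid supply and cell division. In limma, 6105 of 22215 probe sets (27.5%) passed an adjusted p of 0.05, 2547 higher and 3558 lower after imatinib. By gene, 1536 of 11963 (12.8%) were higher and 2053 (17.2%) lower. Changes of at least 2-fold were called for 458 probe sets upward (2.06%) and 633 downward (2.85%). The 3 imatinib values lay entirely above the 3 mock values for 4115 probe sets (18.5%) and entirely below for 5032 (22.7%). Without mock replicate 2, 3313 were higher and 3790 lower, and 6002 of the 6105 stayed called with the same sign. In bulk RNA, a lower share of cells that express a gene and less of its RNA per cell cannot be told apart.

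ALAS2, the gene of the enzyme with which red cell precursors begin heme synthesis, had the largest rise. Its level was 7.0, 7.10 and 7.37 in the mock samples and 12.29, 12.13 and 12.43 in the imatinib samples, a change of 5.12 ± 0.12 (SE, n = 3 per group, adjusted p = 1.279e-08) or 34.9-fold. All imatinib samples were more than 4 log2 units above the highest mock sample. AQP1, the water channel of the red cell, had mock levels of 6.27, 5.58 and 6.23 and imatinib levels of 11.01, 11.04 and 10.98, a change of 4.98 ± 0.17. SLC4A1, the anion exchanger band 3, had mock levels of 7.75, 6.78 and 7.59 and imatinib levels of 12.08, 12.27 and 12.16, a change of 4.79 ± 0.21. In both genes mock replicate 2 was the lowest sample, and without it the changes were 4.76 and 4.50. By the same level limit as for the falls, a mean over the 6 samples at or above the median of the probe sets, the other 9 of the 12 largest rises were those of COL18A1, a basement membrane collagen (4.17), the transcriptional cofactor gene LBH (4.17), the platelet tubulin TUBB1 (4.01), the alpha globin chaperone AHSP (3.65), PPOX, an enzyme late in heme synthesis (3.55), the membrane skeleton protein EPB42 (3.42), the mitochondrial iron importer SLC25A37 (3.30), the metal transporter SLC30A10 (3.17) and the secreted glycoprotein reelin (RELN, 3.13). The largest adjusted p among the 12 was 2.045e-06, for AHSP.

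EGR1, an early response transcription factor switched on by ERK signalling, had the largest fall. Its level went from 10.28, 10.33 and 10.04 in mock to 6.04, 5.78 and 5.93 in imatinib samples, a change of -4.30 ± 0.11 (adjusted p = 1.428e-08). The glucose transporter gene SLC2A3 stood at 10.88, 11.01 and 10.71 in mock and 6.72, 6.68 and 7.07 in imatinib samples, a change of -4.04 ± 0.13, and its dimmer probe sets fell by 5.30 and 4.12. The homeobox factor HHEX went from 10.83, 11.04 and 10.94 to 7.35, 7.30 and 7.38, a change of -3.59 ± 0.09. In each of these 3 genes the lowest mock sample lay above the highest imatinib sample. Among genes whose mean level over the 6 samples reached the median of the probe sets, the rest of the 12 largest falls were those of the chemokine CXCL8 (-3.46), the growth factor binding protein IGFBP4 (-3.37), the Fc receptor FCGR2A (-3.30), TMEM158 (-3.28), the fatty acid binding protein FABP5 (-3.03), the differentiation inhibitor ID1 (-2.92), PDE4DIP (-2.92), the ETS factor ETV5 (-2.85) and the Notch target HES1 (-2.76). The dimmer genes CD69 (-4.20), PHLDA2 (-3.31) and CXCL3 (-3.10) fell by more than HES1.

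**Figure D1:**
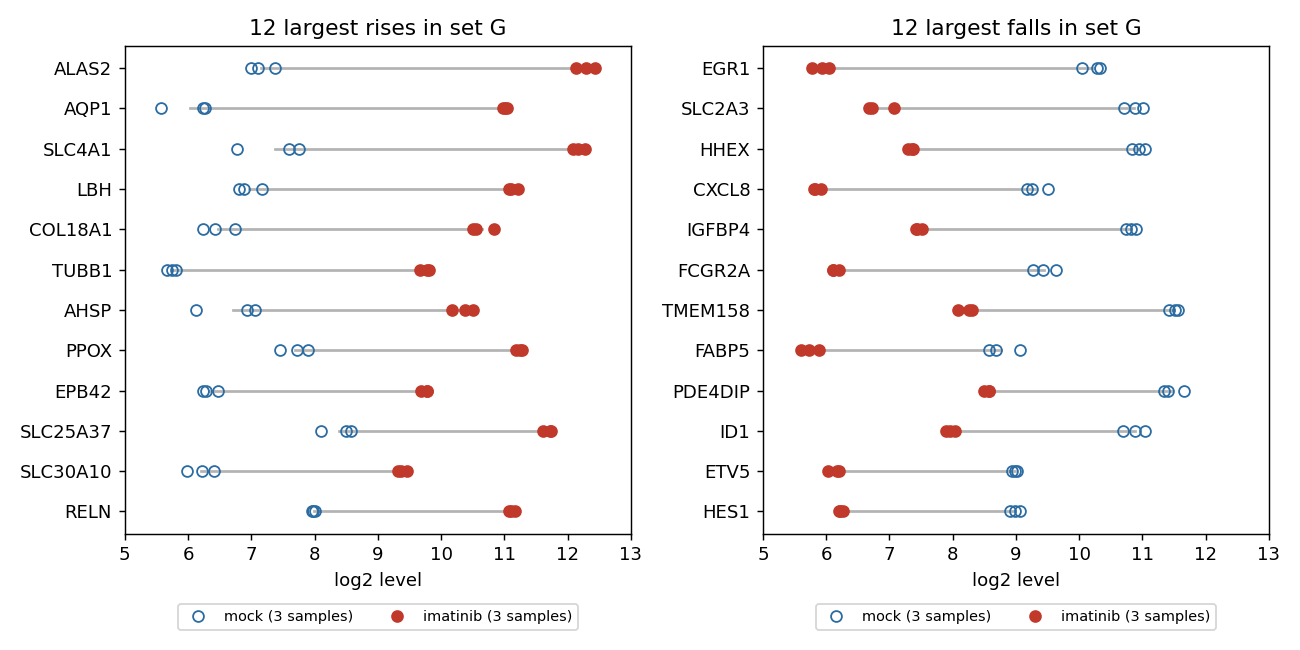
Log2 level (horizontal axis) of the 12 genes with the largest rises (left) and the 12 with the largest falls (right) in set G, with 1 open circle per mock sample, 1 filled circle per imatinib sample and a grey line between the group means. Only genes whose groups do not overlap could be chosen, so the lack of overlap is part of the choice. ALAS2 goes from 7.0 to 7.37 in mock samples to 12.13 to 12.43 in imatinib samples. In AQP1, SLC4A1 and AHSP 1 mock sample lies below the other mock samples.

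Genes of the haemoglobin supply rose across the pathway. Heme is built in steps by ALAS2, ALAD, UROS, UROD, CPOX, PPOX and FECH, and all 7 rose, while ALAS1, the isoenzyme of other tissues, had a change of -0.33 that did not pass. The median of the 8 measured enzymes was 1.90, against 0.03 over all genes. ALAD stood at 6.69, 6.72 and 6.15 in mock and 9.51, 9.36 and 9.48 in imatinib samples, a change of 2.93 ± 0.15. FECH, which places iron into the ring, went from 9.82, 9.92 and 9.84 to 12.28, 12.24 and 12.38, a change of 2.43 ± 0.09. UROD, with a change of 0.77, rose least of the 7. All 6 measured genes of the globin list rose, at a median of 1.86: beside AHSP these were embryonic zeta globin HBZ (2.52 ± 0.10), delta globin HBD (2.43 ± 0.10), beta globin HBB (1.28 ± 0.10), HBQ1 (1.15) and epsilon globin HBE1 (0.75 ± 0.08). Globin transcripts are alike in sequence, so probe sets of these genes can share signal. Of 11 genes of iron uptake and storage 7 rose and 0 fell (median 0.57): beside SLC25A37 these included the transferrin receptor TFR2 (1.75 ± 0.14), the ferritin receptor NCOA4 (1.02) and the iron reductase STEAP3 (0.92), whereas the main transferrin receptor TFRC had a change of 0.11 that did not pass.

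The red cell membrane list holds the band 3 and ankyrin complex, the spectrin skeleton and the carriers of blood groups, and 18 of its 21 measured members rose while 1 fell (median 1.91). Of the band 3 complex, EPB42 had mock levels of 6.28, 6.23 and 6.47 and imatinib levels of 9.78, 9.78 and 9.68, and ankyrin ANK1 rose by 2.12. Of the skeleton, adducin ADD2 rose by 2.74, tropomodulin TMOD1 by 1.91 and beta spectrin SPTB by 1.13. Of the blood group carriers, KEL stood at 8.37, 8.32 and 8.55 in mock and 11.58, 11.47 and 11.58 in imatinib samples, a change of 3.13 ± 0.09, and RHD rose by 2.51, XK by 2.25 and ICAM4 by 2.04. CD47, a surface protein that signals to phagocytes and is not specific to red cells, fell by 0.55, and the adducin gene ADD3 (-0.28) and the adhesion receptor gene CD44 (0.01) did not pass.

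Promoters of ALAS2 and EPB42 are shown because they belong to genes with the largest rises of the heme and membrane groups and hold the GATA letters AGATAA in a window from 250 bases before to 50 bases after the RefSeq start. GATA factors such as GATA1 are the best known regulators of red cell genes. The windows are GRCh38.p14 chrX:55030928-55031227, minus strand, for ALAS2 and chr15:43220969-43221268, minus strand, for EPB42, written 5′ to 3′ on the gene's strand with the matches, on either strand, in capitals.
ALAS2: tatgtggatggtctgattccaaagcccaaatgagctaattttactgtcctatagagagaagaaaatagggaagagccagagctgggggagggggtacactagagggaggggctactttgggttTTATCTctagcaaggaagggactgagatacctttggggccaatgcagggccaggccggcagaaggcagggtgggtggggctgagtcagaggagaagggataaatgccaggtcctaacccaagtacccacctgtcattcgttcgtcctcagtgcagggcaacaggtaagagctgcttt
EPB42: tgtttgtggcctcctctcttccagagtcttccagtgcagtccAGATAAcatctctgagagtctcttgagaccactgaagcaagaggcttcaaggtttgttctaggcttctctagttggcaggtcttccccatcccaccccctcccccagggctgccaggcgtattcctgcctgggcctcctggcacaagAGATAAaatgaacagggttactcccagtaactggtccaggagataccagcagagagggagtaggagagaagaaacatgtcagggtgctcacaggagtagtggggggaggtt
The match in ALAS2 starts 127 bases before the start, on the opposite strand, where it reads TTATCT. Those in EPB42 start 208 and 61 bases before it. Of 17 red cell membrane genes with a window, 6 (35.3%) held AGATAA, and of 7 heme enzymes 2 did, against 649 of 9563 measured genes with a window (6.79%). Among 203 genes called at least 2-fold higher the share was 9.85%, and among 299 called at least 2-fold lower it was 5.35%. A match of letters does not show that a factor binds there.

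Transcription factors of blood formation changed in both directions: of 18 measured, 10 rose and 5 fell (median 0.40). Among factors of red cell genes, TAL1 went from 8.04, 8.32 and 8.07 to 10.66, 10.59 and 10.42, a change of 2.41 ± 0.11, GFI1B rose by 2.13 and KLF1, a master factor of globin genes, by 2.10 ± 0.10. GATA1 rose by 0.36. Beside HHEX, the factors that fell included the progenitor factors GATA2 (-2.09), MYB (-1.87 ± 0.09), which went from 11.34, 11.38 and 11.32 to 9.59, 9.36 and 9.48, and the myeloid factor SPI1 (-1.32), which was dim. Of 14 genes of the platelet lineage 2 rose and 0 fell: TUBB1 and NFE2 (0.83 ± 0.10), a factor that red cell precursors use too. The share that rose, 14.3%, was near the 12.8% of all genes. Of the 14, 7 reached the median level, as did 6863 of all 11963 genes. Defining platelet genes did not pass, such as ITGA2B (0.05), PF4 (0.06) and GP9 (0.24). The median of that list was 0.11, and -0.01 without mock replicate 2, when 2 members rose and 2 fell.

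Genes that STAT5 switches on below BCR-ABL1 were mostly lower: of 14 measured, 10 fell and 2 rose (median -1.23). CISH, a feedback inhibitor and a standard readout of STAT5, had mock levels of 10.53, 10.51 and 10.62 and imatinib levels of 8.31, 8.38 and 8.43, a change of -2.18 ± 0.08. SOCS2, of the same inhibitor family, changed by -2.01 ± 0.10, cyclin D2 (CCND2) by -1.61 ± 0.09, and the kinase genes PIM2 and PIM1 by -1.18 and -0.92. The 2 that rose were cyclin D3 (CCND3, 0.95) and LMO2 (1.12), which is also a factor of red cell genes. SOCS3 (-0.07) and OSM (0.06) did not pass.

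ERK feedback and early response genes numbered 23, of which 15 fell and 1 rose at a median of -1.13, or -0.98 without mock replicate 2. SPRY4, an inhibitor of the cascade that the cascade itself induces, stood at 9.74, 9.78 and 9.70 in mock and 7.09, 7.14 and 6.98 in imatinib samples, a change of -2.67 ± 0.09. The samples of each group were close together and the groups did not overlap. The ETS factors induced by ERK fell together, ETV5 from 8.94, 8.99 and 9.02 to 6.03, 6.17 and 6.21, with ETV4 (-1.30) and ETV1 (-0.98 ± 0.09). Of the AP-1 factors, JUN (-1.63), FOSL1 (-1.52) and FOS (-1.51) fell and JUNB (-0.16) did not pass. The phosphatase genes split: DUSP5 fell by 1.54, DUSP1 rose by 1.41, and DUSP6 (-0.05), a common ERK readout in other cells, was dim at 5.93 and did not pass.

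The promoter of EGR1 is shown because this gene fell most and its window holds the serum response element letters CCATAT, then 2 bases of any kind and GG, which bind serum response factor where ERK induces a gene. It spans GRCh38.p14 chr5:138465229-138465528 on the plus strand, with the matches in capitals.
EGR1: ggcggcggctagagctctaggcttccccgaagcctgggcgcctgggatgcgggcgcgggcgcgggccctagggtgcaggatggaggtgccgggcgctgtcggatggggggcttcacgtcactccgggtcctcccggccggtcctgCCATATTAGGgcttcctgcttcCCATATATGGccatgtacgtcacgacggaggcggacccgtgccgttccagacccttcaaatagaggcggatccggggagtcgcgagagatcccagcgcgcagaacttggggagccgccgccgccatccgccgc
The matches start 105 and 83 bases before the start. These letters stood on either strand in 36 of the 9563 windows (0.376%), and EGR1 was the 1 of 15 ERK genes with a window that held them.

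Genes of chemokines and immune-type receptors that K562 expresses fell as well: 11 of 19 measured fell and 1 rose (median -1.13). Their list was drawn up with earlier results of these data known. CXCL8 stood at 9.26, 9.50 and 9.18 in mock and 5.92, 5.80 and 5.83 in imatinib samples. FCGR2A went from 9.42, 9.64 and 9.27 to 6.11, 6.21 and 6.11. Fc receptor genes are near-identical, so the signal of FCGR2A and its relatives may be shared. The death receptor TNFRSF10B changed by -2.37 ± 0.12 and SERPINB9, a granzyme inhibitor, by -2.27 ± 0.11. The erythropoietin receptor EPOR was the member that rose, by 1.35 ± 0.23, with mock levels of 10.14, 9.17 and 10.14 against 11.04, 11.20 and 11.26.

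Genes that build ribosomes fell and those of the ribosome's own proteins did not pass. MYC, which drives ribosome production, changed by -1.28 ± 0.09 (11.32, 11.41 and 11.20 in mock, 10.11, 9.99 and 10.01 in imatinib samples), and its partner MAX by -0.45, while the other 6 measured genes of that network did not pass. Of 18 nucleolar factors 16 fell and 0 rose (median -0.84). NOP16 went from 10.45, 10.63 and 10.45 to 8.78, 8.79 and 8.76, a change of -1.74 ± 0.09, with the helicase DDX21 (-1.59 ± 0.08), the assembly factor MRTO4 (-1.38) and NOLC1 (-1.35). The 2 dimmest probe sets of NOP16 had changes of 0.14 and 0.08 that did not pass. NPM1 (-0.19) and POLR1B (-0.14) did not pass. In limma 0 of 24 ribosomal protein genes passed, with 0 higher and 0 lower at an unadjusted p under 0.05, and their changes lay between -0.10 and 0.17. At an adjusted p of 0.05, 1 of the 24 was higher after quantile normalization of the 6 arrays or without mock replicate 2.

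MRTO4 was chosen after its values were seen, to show a promoter with the E-box letters CACGTG, which MYC with MAX and other factors bind. The window is GRCh38.p14 chr1:19251555-19251854, plus strand, and the match, in capitals, lies 15 bases after the start.
MRTO4: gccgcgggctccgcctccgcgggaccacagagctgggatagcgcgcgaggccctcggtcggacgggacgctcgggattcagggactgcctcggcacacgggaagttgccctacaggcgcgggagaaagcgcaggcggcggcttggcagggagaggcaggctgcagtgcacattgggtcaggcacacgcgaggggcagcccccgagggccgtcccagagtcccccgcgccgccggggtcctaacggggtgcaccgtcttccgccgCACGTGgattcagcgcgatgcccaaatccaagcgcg
Of 15 ribosome biogenesis genes with a window, 8 (53.3%) held CACGTG, against 909 of the 9563 (9.51%). CCGGAAG, the letters of ETS factors, stood in 6 of the 15, against 15.2% of all windows.

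Genes of amino acid supply and tRNA charging, many of them targets of the stress factor ATF4, were lower. Of 24 measured 19 fell and 0 rose (median -1.04). PSAT1, an enzyme of serine synthesis, lay at a mean of 11.18 ± 0.17 in mock and 8.58 ± 0.06 (SD, n = 3) in imatinib samples without overlap, a change of -2.60 ± 0.10. ATF3 changed by -2.26 ± 0.09, the pseudokinase TRIB3 by -1.78 ± 0.10 and asparagine synthetase ASNS by -1.55 ± 0.09, while ATF4 itself changed by -0.29. Of 16 genes of cytosolic aminoacyl-tRNA synthetases 15 fell and 1 rose (median -0.55). The enzymes for tryptophan (WARS1, -1.88 ± 0.08), valine (VARS1, -1.53) and tyrosine (YARS1, -1.36) fell most, and EPRS1, for glutamate and proline, rose by 0.33.

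Protein folding genes followed the same direction. Of 17 of the endoplasmic reticulum 13 fell and 0 rose (median -0.55), among them HSP90B1 (-1.73), XBP1 (-1.38 ± 0.10), which is a transcription factor of the unfolded protein response, and the chaperone HSPA5 (-1.37 ± 0.10). HSPA5 stood at 11.23, 11.42 and 11.08 in mock and 9.96, 9.83 and 9.84 in imatinib samples. Of 15 heat shock genes 10 fell (median -0.38), led by the cochaperone STIP1 (-1.11) and mitochondrial HSPA9 (-1.10 ± 0.08), and the regulator HSF1 rose by 0.73. For nucleotide and polyamine synthesis, 16 of 20 genes fell and 0 rose (median -0.55). Spermidine synthase SRM went from 10.90, 11.02 and 11.06 to 9.30, 9.27 and 9.32, a change of -1.70 ± 0.09, and the purine enzymes PFAS (-1.33 ± 0.11) and GART (-0.97 ± 0.08) fell, while TYMS (-0.11), which makes thymidylate for DNA, did not pass.

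Mitosis genes fell. Of 31 measured 28 fell and 0 rose (median -0.57). CDC20, the activator of the anaphase complex, had mock levels of 10.09, 10.39 and 10.23 and imatinib levels of 9.0, 8.93 and 8.98, a change of -1.26 ± 0.10. The kinase PLK1 went from 9.72, 9.90 and 9.81 to 8.70, 8.68 and 8.63, a change of -1.14 ± 0.09, with CKS2 (-1.11) and cyclin B1 (CCNB1, -1.01 ± 0.10). NDC80 (-0.38), CCNB2 (-0.26) and UBE2C (0.01) did not pass. Genes of DNA replication and entry into S phase did not share this: of 40 measured 6 rose and 5 fell (median -0.03). Both counts were near the background of 12.8% higher and 17.2% lower over all genes. CDT1 and cyclin E1 (CCNE1) each rose by 0.50, and CDC45 (-0.47) and RFC3 (-0.46) fell. That balance rested on scaling and on a single sample, with 13 higher and 4 lower after quantile normalization of the 6 arrays, 5 and 7 with centred arrays, and 12 and 6 without mock replicate 2.

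CDC20 and PLK1, chosen after their values were seen, show the promoter letters known for mitosis genes, CCAAT, bound by NF-Y, and TTTGAA, the cell cycle homology region. The windows are GRCh38.p14 chr1:43358731-43359030 and chr16:23678639-23678938, both on the plus strand, with the matches on either strand in capitals.
CDC20: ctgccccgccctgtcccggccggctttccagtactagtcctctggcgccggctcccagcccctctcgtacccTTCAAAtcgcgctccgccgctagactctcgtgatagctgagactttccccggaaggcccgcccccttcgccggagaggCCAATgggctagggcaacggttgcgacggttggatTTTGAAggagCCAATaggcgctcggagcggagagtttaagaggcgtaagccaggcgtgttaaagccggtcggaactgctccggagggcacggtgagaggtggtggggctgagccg
PLK1: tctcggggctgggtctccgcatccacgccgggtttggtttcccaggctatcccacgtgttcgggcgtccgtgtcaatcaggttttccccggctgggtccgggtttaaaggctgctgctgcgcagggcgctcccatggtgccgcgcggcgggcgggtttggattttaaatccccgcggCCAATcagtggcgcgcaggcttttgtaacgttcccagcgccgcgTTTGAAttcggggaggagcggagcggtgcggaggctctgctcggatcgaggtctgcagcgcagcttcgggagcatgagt
In CDC20 CCAAT starts 100 and 55 bases before the start and TTTGAA 178 and 65 bases before it, the former on the opposite strand. In PLK1 they start 73 and 29 bases before it. Of 25 mitosis genes with a window 14 (56.0%) held TTTGAA and 19 (76.0%) CCAAT, against 1050 (TTTGAA) and 3567 (CCAAT) of the 9563 windows.

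Brakes of the cell cycle were mixed: of 23 CDK inhibitor and FOXO genes 10 rose and 5 fell (median 0.15). CITED2, a FOXO target, stood at 7.70, 8.21 and 7.74 in mock and 10.40, 10.40 and 10.26 in imatinib samples, a change of 2.47 ± 0.13. YPEL5 rose by 1.63, CDKN1C, which encodes an inhibitor of CDKs, by 1.62 ± 0.09, FOXO3 by 1.23 and CDKN1B by 0.73, while KLF6 fell by 1.06 and CDKN1A (-0.13) did not pass. In the BCL2 family of apoptosis genes 5 of 16 fell and 3 rose (median -0.05), or 5 and 5 without mock replicate 2 or after quantile normalization. Both promoters of apoptosis (PMAIP1, -1.69, BID, -1.36, and BAK1, -0.58) and inhibitors (MCL1, -1.37, and BCL2L1, -0.87) were among those that fell. BIK (0.64), BNIP3 (0.58) and BAD (0.51) rose. BCL2L11, the gene of BIM, which is known to promote death after kinase inhibition, had a change of 0.41 that did not pass.

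Genes of glucose use fell in part, 11 of 20 with 2 that rose and a median of -0.34, or 12 and 1 without mock replicate 2. PKM, the pyruvate kinase of dividing cells, went from 12.15, 12.22 and 12.28 to 9.99, 9.94 and 10.11, a change of -2.20 ± 0.09, and hexokinase HK2 changed by -1.73 ± 0.09. SLC2A1, the glucose transporter of the red cell, rose by 1.60 ± 0.08, so the 2 glucose transporter genes measured in that list moved in opposite directions. Of 13 cholesterol genes 7 fell and 0 rose (median -0.43), led by HMGCS1 (-1.35 ± 0.10) and IDI1 (-1.14 ± 0.10). Of 26 genes of oxidative phosphorylation 5 fell and 1 rose (median 0.00), while quantile normalization gave 3 and 5 and leaving out mock replicate 2 gave 5 and 3. In the main fit 19.2% fell and 3.85% rose, against 17.2% and 12.8% of all genes. Cytochrome c (CYCS) changed by -0.92 ± 0.10. Of 25 lysosome and autophagy genes 10 rose and 5 fell (median 0.13). The rises were of lysosomal enzymes and their helpers, such as ASAH1 (2.15 ± 0.11), CTSB (1.40) and NPC2 (1.05), and the falls included CTSH (-1.43) and the autophagy gene ATG5 (-0.76).

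Of 10 measured genes of proteins that imatinib binds, with BCR, 1 rose and 1 fell, or 2 and 2 without mock replicate 2. Over all genes 12.8% rose and 17.2% fell. ABL1 stood at 11.33, 11.37 and 11.12 in mock and 11.63, 11.63 and 11.61 in imatinib samples, a change of 0.35 ± 0.09 (adjusted p = 0.01811), a call that was lost under 5 alternatives: with a replicate block, without mock replicate 3 (0.28, adjusted p = 0.05233) and without each imatinib replicate. BCR had a change of 0.14 (adjusted p = 0.2579) and KIT one of 0.23, and these did not pass, although KIT did without mock replicate 2 (0.28, adjusted p = 0.03247). Probe sets do not tell the fusion from the normal transcripts. NQO2, an oxidoreductase that also binds imatinib, went from 10.92, 11.11 and 10.89 to 8.57, 8.62 and 8.52, a change of -2.40 ± 0.09. Of 16 SRC family kinases and adaptors 4 rose and 5 fell. LYN (-1.59 ± 0.10) and YES1 (-1.47) fell, while the PI3 kinase subunit gene PIK3R1 (2.49 ± 0.10), FYN (1.22) and JAK2 (1.13) rose.

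Of 28 interferon response genes 4 fell and 4 rose (median 0.12). These shares, 14.3% each, were near the 17.2% and 12.8% of all genes. IFITM2 (-1.02), BST2 (-0.90), IFITM3 (-0.77) and IFITM1 (-0.72) fell, and IRF9 (0.75), IRF1 (0.52), IFI27 (0.48) and IRF7 (0.41) rose. Of 11 histone genes 4 rose, led by H2AC8 (1.10 ± 0.12) and H2AC6 (0.84), and H2AZ1 fell by 0.28. Of 10 reference genes PGK1 (-0.63) and TBP (-0.38) fell and ACTB (-0.23) did not pass. In the other marker lists CD7 rose by 0.60 and CD3D fell by 2.47 among 10 T cell genes, LYZ fell by 0.67 among 11 monocyte and granulocyte genes, and 0 of 7 B cell genes passed in limma, with 0 higher and 0 lower at an unadjusted p under 0.05.

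**Figure D2:**
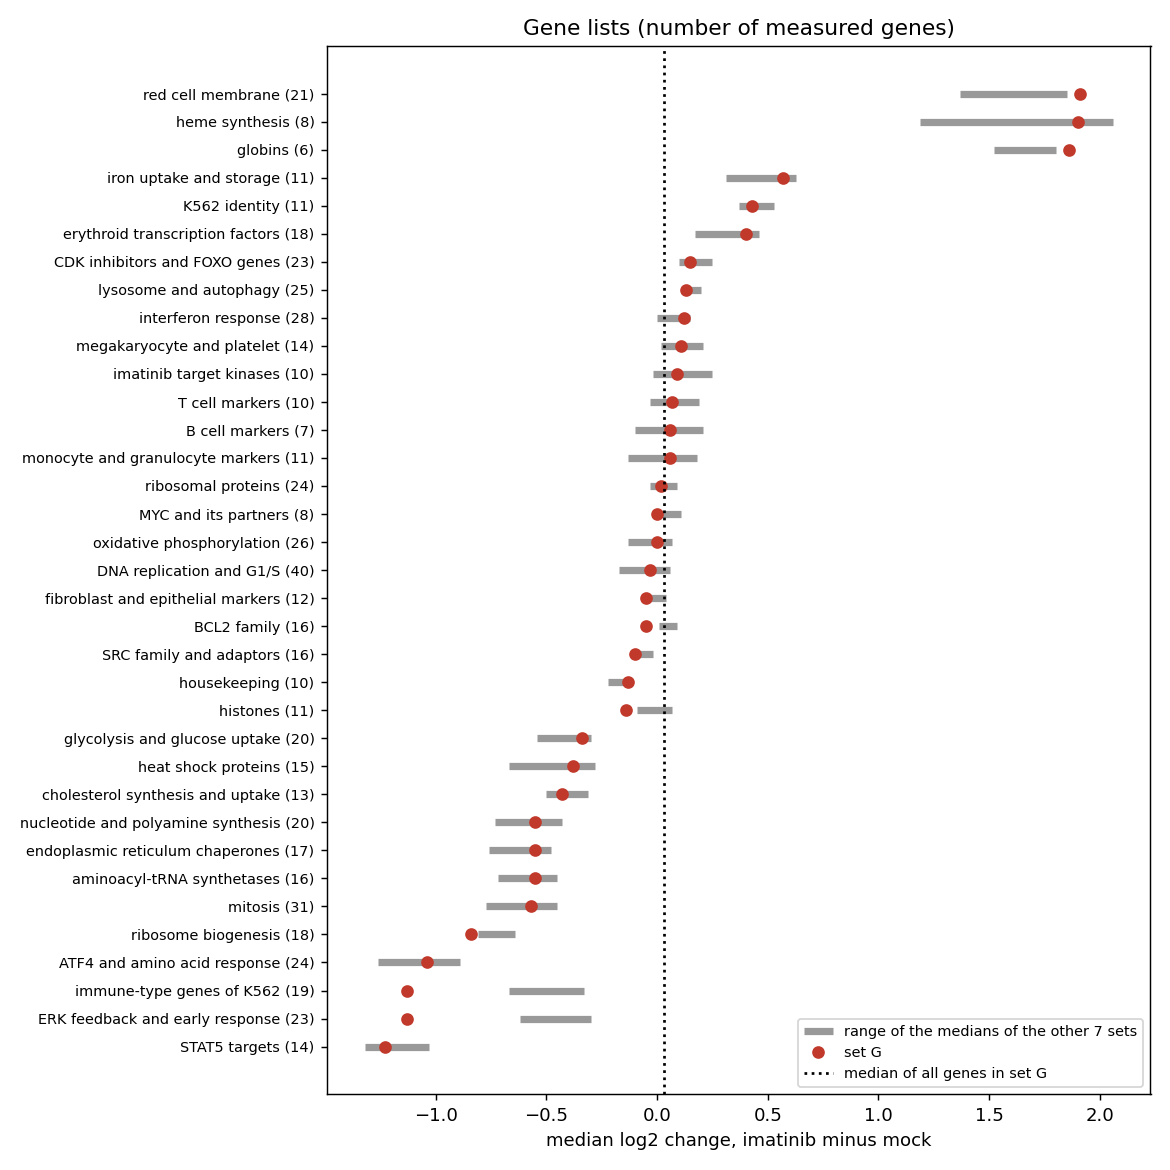
Median log2 change, imatinib minus mock, over the measured genes of each list (numbers in brackets), with set G as a red point, the range of the medians of the other 7 sets as a grey bar and the median of all genes in set G as a dotted line. Red cell membrane, heme and globin lists lie near 1.9 on the right, STAT5, ERK, immune-type and ATF4 lists below -1 on the left, and 10 of the 35 points of set G lie outside the bars, by most for the ERK and immune-type lists, whose bars span -0.62 to -0.30 and -0.67 to -0.33. The other 8 are red cell membrane, globins, MYC, ribosome biogenesis, BCL2 family, SRC family, histones and fibroblast and epithelial markers. Some of these lie outside by little, such as MYC at 0.00 against a lowest median of 0.01 in the other sets. As background, set G lies outside the range of the other 7 sets for 22.9% of all single probe sets.

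The changes of set G were then set against the mean change of the other 7 sets, each with its own 3 mock and 3 imatinib samples. Set G mostly changed the same genes in the same direction by more. The difference passed an adjusted p of 0.05 for 797 of 22215 probe sets (3.59%), 332 more positive (1.49%) and 465 more negative (2.09%) in set G. By the same test set C had 926 more positive and 974 more negative, set F 162 and 291, and set E 88 and 52. Sets A, B, D and H had at most 16 in either direction. Of the 797, 748 changed further in the same direction, 17 changed less in the same direction and 32 differed in sign. With centred arrays 379 were more positive and 404 more negative, and without mock replicate 2 the numbers were 333 and 316. The error of this test was pooled over all sets, although the mock samples of set G were more spread. Their median SD of 0.147 compares with 0.0615 (set B) to 0.102 (set F) in the other mock groups. With array weights by set, 183 were more positive and 245 more negative. Of 6105 probe sets called in set G, 5958 were called with the same sign in the mean of the other sets, 0 with the opposite sign, and 147 were not called there.

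The excess in set G was not even over levels. The slope of the changes of set G on the mean changes of the other sets was 1.116 across probe sets, or 1.062 without mock replicate 2, and each other set against the remaining 7 had a slope between 0.849 (set F) and 1.12 (set C). In 5 bins of equal size by level, from the dimmest to the brightest, the slope of set G was 1.943, 1.465, 1.282, 1.14 and 0.9807. Called differences numbered 258, 197, 166, 127 and 49 in the same order. The levels of set G also spread more, with an SD of 2.08 over probe sets against 1.76 to 1.84 in the other sets. In the same bins the median of mock replicate 2 minus the mean of the other mock samples was -0.104, -0.156, -0.0974, 0.122 and 0.119, and the part of any of these in the differences was not tested. After the changes of each set were rescaled to a slope of 1, 144 were more positive and 217 more negative (1.63% together), and 312 of the 797 were among them. Rescaling used the same slope at all levels, so it could not even out a slope that varied with level. It also shrank the changes of bright probe sets, although the slope in the brightest bin was 0.9807. After quantile normalization of all 48 arrays 76 were more positive and 95 more negative. Rescaled in the same way, set F had 437 more positive and 532 more negative, set C 187 and 171, and set E 72 and 76. Sets A, B, D and H then had at most 13 in either direction.

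**Figure D3:**
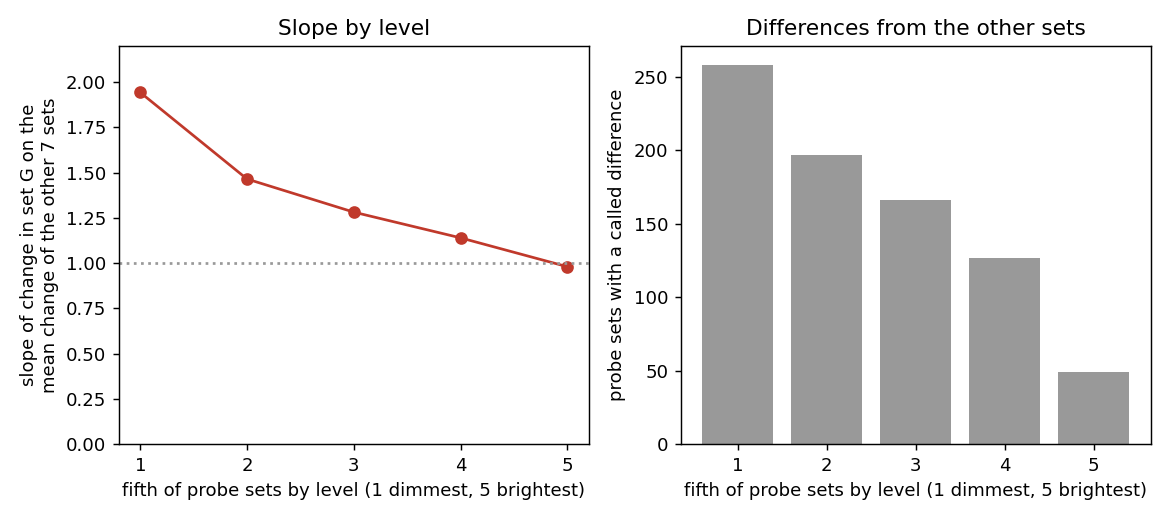
Left, slope of the log2 change in set G on the mean log2 change of the other 7 sets within each of 5 equal bins of the probe sets by level, from 1 (dimmest) to 5 (brightest), with a dotted line at a slope of 1. Right, number of probe sets in each bin whose change differed from that mean at an adjusted p under 0.05. The slope falls from 1.943 to 0.9807 and the number of differences from 258 to 49.

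By gene, 2.98% of all 11963 differed. The genes described first are those whose mean level over both groups was at or above the median in all 8 sets. A gene can meet this through the group where it is high: in set G the mock samples of TUBB1 and EPB42 and the imatinib samples of EGR1 and ETV5 lay below the sample medians of 6.98 to 7.07. Of these genes TUBB1, the beta tubulin of platelets, had the largest difference: it rose from 5.75, 5.66 and 5.81 to 9.81, 9.67 and 9.78 in set G, a change of 4.01 ± 0.09, against a mean of 2.15 and a range of 1.10 to 3.09 over the other sets. The difference was 1.86 ± 0.16 (adjusted p = 3.033e-10), 1.35 after rescaling (adjusted p = 1.271e-06) and 1.49 after quantile normalization. The next more positive genes were largely of the red cell. SLC4A1 changed by 1.28 more than the mean of the other sets (3.51, range 3.22 to 4.71), EPB42 by 1.12 (2.30, range 2.03 to 2.55), AHSP by 1.0 (2.64), AQP1 by 0.97 (4.02, range 3.73 to 4.48) and ALAD by 0.88 (2.05). None of these 5 passed after rescaling, with adjusted p from 0.0537 for EPB42 to 0.7003 for AQP1. The tetraspanin gene TSPAN32 changed by 1.06 more (1.62 in the others), but its mock levels of 7.99, 6.64 and 7.20 were spread, and without mock replicate 2 the difference was 0.75. RNASE1, a secreted ribonuclease (0.83), the lipocalin APOD (0.75), the glycosyltransferase GALNT6 (0.74), COL18A1 (0.73) and FAXDC2 (0.65) completed the 12. FAXDC2 had mock levels of 10.86, 10.03 and 10.79, and without mock replicate 2 its difference was 0.39. The other probe sets of FAXDC2 differed by 0.753 and 0.941 and the dimmer of AQP1 by 0.852. Those of COL18A1 (0.534), ALAD (0.258) and RNASE1 (0.15) did not pass.

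On the other side, and by the same level limit, SPRY4 differed most, by -1.21 ± 0.13 (adjusted p = 1.372e-08), with -2.67 in set G against a mean of -1.46 and a range of -2.33 to -1.18. PRF1, the pore protein perforin, differed by -1.11 from a mean of -1.46 in the others. It had mock levels of 8.69, 9.45 and 9.0 and imatinib levels of 6.76, 6.38 and 6.29. ETV5 differed by -1.09 ± 0.11, with -2.85 against a range of -1.97 to -1.61, and EGR1 by -1.01 ± 0.26 (adjusted p = 0.0175), with -4.30 against a range of -4.01 to -2.69. The call of EGR1 was lost without mock replicate 2 (-0.95, adjusted p = 0.07025), while its dimmer probe set differed by -1.091. ASPH, an aspartate hydroxylase, differed by -0.94, CD3D by -0.85, the inositol phosphatase INPP1 by -0.83, ETV1 by -0.74, CXCL8 by -0.72, the adhesion protein MCAM by -0.70 and the death receptor TNFRSF21 by -0.70. Of the dimmer probe sets of ASPH, 1 differed by -0.689 (adjusted p = 0.0491 in limma), and those at -0.317 and -0.176 did not pass. After rescaling SPRY4, PRF1, ETV5, ASPH and ETV1 passed, while MCAM (adjusted p = 0.05125), INPP1 (0.06118), TNFRSF21 (0.06831), CD3D (0.1523), CXCL8 (0.7926) and EGR1 (0.8538) did not. ETV1 had a mean of only -0.24 in the other sets, with a range of -0.55 to 0.08, against -0.98 in set G.

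HBZ was the 1 gene of these 24 that changed less in set G. It rose from 11.41, 11.65 and 11.44 to 14.08, 14.06 and 13.91, by 2.52, against a mean of 3.21 and a range of 2.93 to 3.96. HBE1 likewise rose by 0.75 against 1.08, a difference of -0.34. These are bright probe sets. HBZ differed by -1.10 after rescaling (adjusted p = 1.62e-06), by -0.62 without mock replicate 2 (adjusted p = 0.006116), and by -0.02 after quantile normalization of all arrays (adjusted p = 0.9996). A probe set of the iron importer SLC25A37 other than its brightest, chosen after its values were seen, rose by 0.411 in set G, a difference of -1.964 from the mean of the other sets, while its brightest differed by -0.11 and did not pass.

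**Figure D4:**
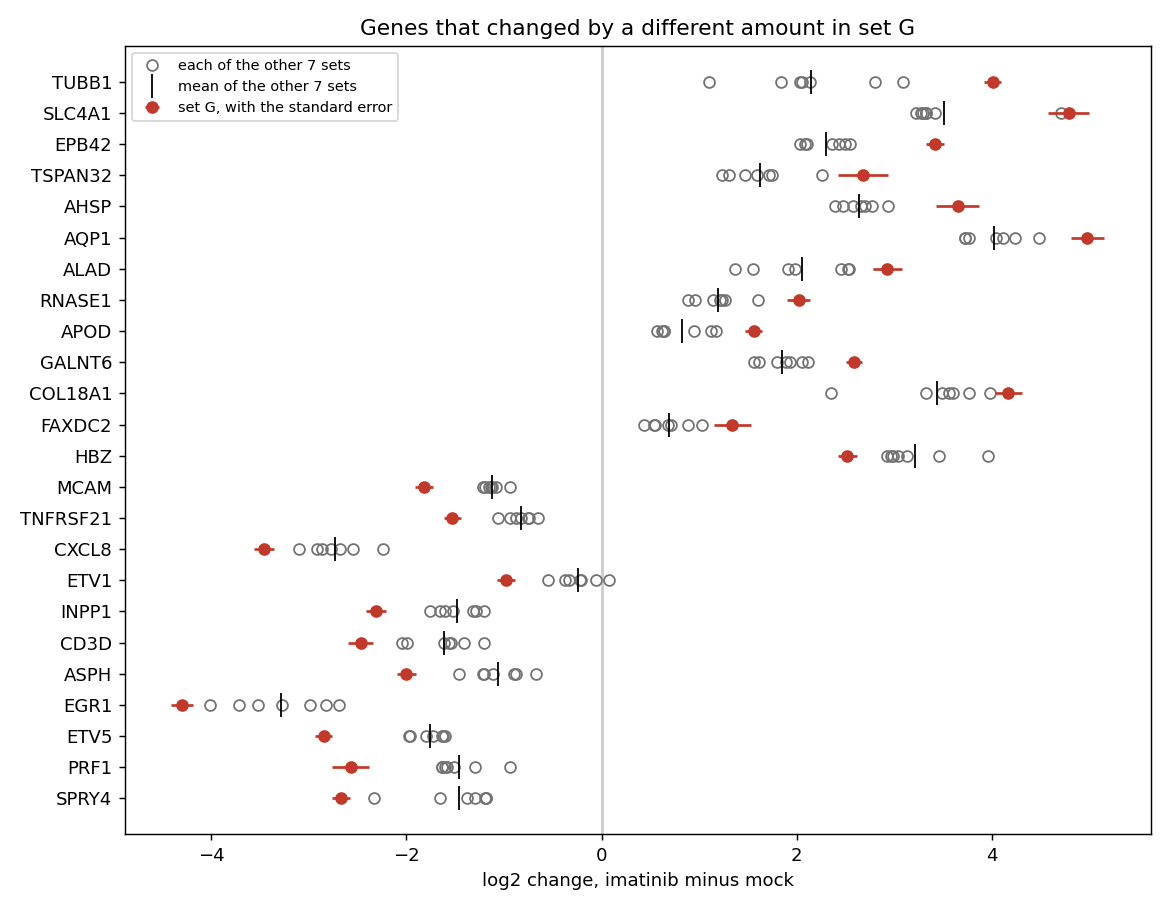
Log2 change, imatinib minus mock, of the 24 genes with the largest called differences between set G and the other sets: set G with its standard error (red), each of the other 7 sets (open circles) and their mean (bar). Set G lies outside the range of the other sets in each of the 24, for TUBB1 at 4.01 against 1.10 to 3.09, and HBZ is the gene where set G lies nearer to 0 than the others.

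Much of the ERK list changed further in set G. Of its 23 genes 12 (against 1.70% of all genes) changed more negatively in set G and 0 more positively: SPRY4, ETV5, EGR1, FOS, DUSP5, ETV1, SPRY2, FOSL1, ETV4, CCND1, EGR3 and IER3. FOS stood at 7.72, 7.64 and 7.59 in mock and 5.81, 6.33 and 6.27 in imatinib samples, -1.51 against a mean of -0.53 and a range of -0.68 to -0.43. DUSP5 went from 7.39, 7.43 and 7.38 to 5.84, 5.80 and 5.96, -1.54 against a mean of -0.77, and SPRY2 changed by -1.13 against -0.44. Among the other 11, IER2, at a level of 11.14, changed by -1.33 against -1.53, and SPRED2, at 8.86, by -1.30 against -1.37, with no called difference. After rescaling 6 of the 12 passed (SPRY4, ETV5, FOS, DUSP5, ETV1 and SPRY2), and without mock replicate 2 the number was 8. Rescaling also gave 1 call in the other direction, IER2, which was then less negative in set G (adjusted p = 0.01242 in limma). JUN, with a difference of -0.40, did not pass, with an adjusted p of 0.06936.

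Of the 19 immune-type genes, a list drawn up with earlier results of these data known, 8 changed more negatively and 1 more positively. Over all genes the shares were 1.70% and 1.29%. CXCL2 went from 7.10, 7.52 and 7.35 to 4.64, 4.89 and 4.55, -2.63 against a mean of -1.40 and a range of -2.00 to -0.80. CXCL3 changed by -3.10 against -1.88, and IL10RA, an interleukin receptor chain, by -1.58 against -0.70. These 3 passed after rescaling, while CXCL8, FCGR2A, CD3D, TNFRSF10B and IL2RG did not. By their brightest probe sets, SERPINB9 (-2.27 against -2.57) and SAMSN1 (-2.21 against -2.69) showed no called difference. The dimmer probe set of SERPINB9 was more negative in set G, with a difference of -1.264 (adjusted p = 4.325e-05 in limma). EPOR rose by 1.35 against 0.83, a call lost without mock replicate 2.

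Of the 21 red cell membrane genes 6 changed more positively (against 1.29% of all genes): SLC4A1, EPB42, AQP1, KEL (3.13, 0.57 more), ANK1 (2.12, 0.50 more) and SLC2A1 (1.60, 0.38 more). All 6 passed without mock replicate 2, 5 members after quantile normalization, and 0 more positive after rescaling (7 at an unadjusted p under 0.05 in either direction). Rescaling gave calls in the other direction, more negative in set G, for ADD2 of this list and for 3 of 8 heme enzymes (ALAS2, PPOX and FECH). None of these was called before rescaling, which used the same slope at all levels, so these calls do not show a smaller change in set G. In 19 of the 35 lists 0 differences were called, and at a share of 2.98% of all genes a count of 0 in lists of these sizes is near the background. Among them, the lists of mitosis (31 genes), DNA replication (40), aminoacyl-tRNA synthetases (16), nucleotide synthesis (20), chaperones of the endoplasmic reticulum (17), ribosomal proteins (24) and cholesterol (13) held 0 called differences in limma, with 8 of 161 genes at an unadjusted p under 0.05. In ribosome biogenesis it was 1 of 18, UTP20 (-0.35).

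A stricter question is whether set G departed by more than the other 7 sets depart from each other. There 26 of 22215 probe sets (0.117%) passed, 8 more positive (0.0360%) and 18 more negative (0.0810%), and set C, by the same test, had 24. For 12 genes the brightest probe set was among them, and genes reached only through another probe set are not counted here. ETV5 and MCAM (9.25, 9.38 and 9.19 to 7.50, 7.41 and 7.46, -1.82 against a range of -1.22 to -0.94) reached the median level in all 8 sets, ETV5 in set G through its mock samples. The other 10 were dimmer in at least 1 set. Of these, the drug efflux pump ABCG2, which is known to transport imatinib, went from 5.69, 5.72 and 6.22 to 7.75, 7.71 and 7.51, a change of 1.78 against a range of 0.50 to 0.90. PCK1, an enzyme of glucose synthesis, changed by 1.43 against 0.21 to 0.49, from mock levels of 4.01, 4.08 and 3.97. FOS, HSPA6 (-1.59 against -0.91 to -0.45), a stress-induced heat shock gene, SPI1 (-1.32 against -0.68 to -0.27), NTS, CLEC2B, GABBR2 and FBXO22 changed more negatively, and ERICH2-DT more positively. After rescaling, and after quantile normalization of all 48 arrays, 0 probe sets passed this limma test, with 832 and 500 at an unadjusted p under 0.05, and without mock replicate 2 it was 3 and 5.

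Spiked control RNA differed in the direction of its planned amount. The mean over 24 poly-A control probe sets was 6.52, 6.87 and 6.46 in mock and 6.13, 5.98 and 6.12 in imatinib samples, a difference of -0.54 (exact permutation p = 0.1, two-sided, the smallest that 3 against 3 samples allow), against a planned log2 ratio of -1. In the other sets it lay between -0.40 and -0.11. Over 18 hybridization controls the difference was -0.12 (exact permutation p = 0.6). The difference between 3′ and 5′ probe sets of actin, a sign of RNA integrity, went from -0.58 ± 0.04 (SD, n = 3) to -0.47 ± 0.07, a change of 0.11 (exact permutation p = 0.1), and that of GAPDH changed by 0.04 (exact permutation p = 0.3).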

How the data were processed

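Per the labels, RNA of 48 K562 samples in 8 lettered sets was measured on Affymetrix arrays. The authors deposited 1 log2 value per probe set and sample; their range showed the log2 scale. How background was corrected, probes were summarized and arrays were normalized is not given in the sources used here. The values of set G ran from 2.54 to 14.53, and the sets lie on different scales, so levels were compared only within a set. Values were used as deposited, without the 68 control probe sets. Names came from the platform annotation, with symbols of the RefSeq gene table of GRCh38.p14: 19065 of 22215 had 1 symbol, of which 19053 matched, 1043 had several and 2107 none. Promoter windows, of 300 bases, came from RefSeq on GRCh38.p14, and 9563 of 11963 genes matched.

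Tests were limma 3.58.1 in R 4.3.3 (lmFit, eBayes, two-sided, Benjamini-Hochberg over all 22215 probe sets, threshold 0.05). Set G was fitted alone, 3 against 3. Its change was set against the mean change of the other 7 sets in a fit of 16 set-by-treatment groups. Errors there came from the spread between replicates, pooled over all 16 groups. The wider spread of the mock samples of set G was thus averaged with that of the other groups. The change of set G was also set against the spread of the other 7 sets in a fit of the 8 changes. There the lone set is assumed to vary like the others. In rescaling, each set's changes were divided by its slope. Means over control probe sets were tested by exact permutation. Precision is limited by the number of arrays.

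The genes named are the 12 largest rises and 12 largest falls at or above the median level whose groups did not overlap, up to 4 members of each list by smallest p, the 12 largest differences from the other sets in each direction at or above the median level in all sets, up to 8 genes beyond the spread of the other sets, and BCR and ABL1. The 35 lists hold 596 measured entries. Other genes, named as examples of lists, as members that differed from the other sets, or as the dimmer genes beyond the spread, were chosen after their values were seen. The members and lists were chosen with earlier results of these data known.

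No 2 replicates were alike: even the most similar pair had a probe set that differed by 0.671. On simulated data for set G, 0, 7, 41 and 49 of 50 changes of 0.25, 0.5, 1 and 2 log2 were recovered, with 1 false call among 98. For the difference from the other sets 6, 33, 50 and 50 of 50 were recovered with 8 false calls among 147, and for the spread of the other sets 0, 12, 42 and 50 with 6 among 110. Only 50 of 22215 probe sets were changed at each size, far fewer than were called in the data. For the difference, a probe set had the same spread in every set, the average over all groups. That simulation thus cannot show how the wider mock spread of set G affects false calls. Figures used matplotlib 3.10.9.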

Additional observations from a re-analysis of the deposited data

Results flagged for a closer look

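Differences between set G and the other 7 sets under the same contrast, tested as the difference itself, were found for 332 probe sets with a more positive and 465 with a more negative change in set G. Against the spread of the other 7 sets these numbers were 8 and 18. Set C, by the same tests, had 926 and 974, and 12 and 12. Values below are the change in set G minus the mean change of the other sets, in log2 units.

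Of the genes of red cells and heme, SLC4A1 differed by 1.28, EPB42 by 1.12, AHSP by 1.0, AQP1 by 0.97, ALAD by 0.88, KEL by 0.57, HBD by 0.43 and SLC2A1 by 0.38, while HBZ differed by -0.70 and HBE1 by -0.34. TUBB1 differed by 1.86, TSPAN32 by 1.06, RNASE1 by 0.83, APOD by 0.75, GALNT6 by 0.74, COL18A1 by 0.73, FAXDC2 by 0.65 and PIK3R1 by 0.50. The call of HBD was lost without mock replicate 2 (adjusted p = 0.1087 in limma).

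Of the genes of ERK and STAT5 signalling, SPRY4 differed by -1.21, ETV5 by -1.09, EGR1 by -1.01, ETV1 by -0.74, CISH by -0.54 and IER3 by -0.31. Of chemokine, receptor and other surface genes, CD3D differed by -0.85, CXCL8 by -0.72, MCAM by -0.70, TNFRSF21 by -0.70, FCGR2A by -0.66 and TNFRSF10B by -0.62. Further differences were PRF1 with -1.11, ASPH with -0.94, HES1 with -0.91, INPP1 with -0.83, FABP5 with -0.67, ATF3 with -0.62 and IGFBP4 with -0.48. Without mock replicate 2 the calls of EGR1, IER3, FABP5, TNFRSF10B and IGFBP4 were lost, with adjusted p in limma of 0.07025, 0.07741, 0.2207, 0.1057 and 0.05011.

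After rescaling, the calls of TUBB1, TSPAN32, RNASE1, APOD, FAXDC2, HBZ, HBE1, SPRY4, ETV5, ETV1, PRF1 and ASPH held, and those of the other genes named above were lost, among them IGFBP4 (-0.02), FCGR2A (-0.20), CXCL8 (-0.25), FABP5 (-0.26), ATF3 (-0.34), CD3D (-0.51), INPP1 (-0.53) and HES1 (-0.57).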

How the results depend on the processing

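Of 136 named genes called in set G, 132 kept their sign and call under every alternative run, and the exceptions were ABL1, COX8A, H2BC21 and TBP. Leaving out 1 replicate at a time gave 1806 to 3313 higher and 2642 to 3790 lower probe sets, with the highest counts without mock replicate 2. Against the other 7 sets it gave 240 to 342 more positive and 316 to 547 more negative, and leaving out 1 of the other sets gave 274 to 331 and 386 to 490. Replicate numbers did not pair the samples of set G: deviations of same-numbered samples correlated at -0.355, -0.515 and 0.0558. The fit with a replicate block called 2019 higher and 2910 lower, and against the other sets 272 more positive and 386 more negative. Beyond genes named by rule, further list members lost their calls with the block, EPRS1 and H2AZ1 among them. Genes called lower went from 15 to 11 for aminoacyl-tRNA synthetases, 28 to 26 for mitosis, 5 to 2 for oxidative phosphorylation and 2053 to 1688 over all genes. The number stayed at 16 for ribosome biogenesis and 15 for the ERK list.

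The difference from the other sets depended most on scale and level. It gave 76 more positive and 95 more negative after quantile normalization of all arrays, 144 and 217 after rescaling to a slope of 1, 69 and 63 with only probe sets at or above the median level in all sets, where fewer were tested, and 183 and 245 with array weights. Rescaling without mock replicate 2, chosen after seeing the data, gave 141 and 140. Against the spread of the other sets limma gave 0 and 0 after rescaling, 4 and 3 with centred arrays, and 0 and 0 after quantile normalization, with 832 and 500 at an unadjusted p under 0.05 in the first and last. Without mock replicate 2, also chosen after seeing the data, it was 3 and 5. The cause was not tested. Arrays gave no signal over background here, so how far the dim probe sets, where most differences lay, stand above it is not known.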

Other observations

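Genes outside the lists also had large changes in set G. The 12 largest rises and falls at or above the median level whose groups did not overlap, apart from genes already named by rule, were looked at after the values were seen. PKLR, the pyruvate kinase of red cells and liver, went from 7.92, 7.85 and 7.96 in mock to 10.79, 10.60 and 10.64 in imatinib samples, a change of 2.77 ± 0.09, opposite to that of PKM, the pyruvate kinase of dividing cells (-2.20). The largest of these rises was that of TSC22D1, a transcriptional regulator (3.03), followed by FEZ1 (2.96), and the solute carrier gene SLC22A4 rose by 2.79. ABHD5, an activator of fat breakdown, rose by 2.45, the acetyltransferase gene KAT2B by 2.37, galectin 3 (LGALS3) by 2.35, glutaredoxin (GLRX) by 2.32 and the myosin light chain gene MYL4 by 2.24. SERPINF1, C11orf21 and DUSP21 rose by 2.48, 2.75 and 2.77. DUSP21 stood at 5.99, 5.59 and 5.84 in mock and 8.57, 8.55 and 8.60 in imatinib samples, and rose by 1.80 in the mean of the other sets (difference 0.97, adjusted p = 5.319e-05 in limma, 0.04944 after rescaling).

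Among the falls, the zinc transporter SLC39A14 went from 9.45, 9.70 and 9.45 to 7.09, 7.01 and 6.88, a change of -2.54 ± 0.10, and MLLT11 from 11.57, 11.46 and 11.40 to 8.98, 8.83 and 9.11. The calcium channel ITPR1 changed by -2.33, the death-associated kinase DAPK1 by -2.25, the cytokinesis protein CEP55 by -2.17 and the arginase ARG2 by -2.16. SPTBN1, the non-erythroid beta spectrin, changed by -2.26, whereas the red cell beta spectrin SPTB rose by 1.13. FAM216A (-2.40), FCGR2C (-2.33), GMFG (-2.26), AMIGO2 (-2.16) and ERAL1 (-2.14) completed the 12. Of the 6 probe sets of SPTBN1, 3 were called lower.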
